A study of Drosophila melanogaster with 3 samples.

Results

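The genes encoding the proteins of the cytoplasmic ribosome were followed across the development of the *Drosophila* midgut. A gene was counted as a member when its symbol begins, case sensitive, with RpL or RpS followed by a digit or P. This rule took 92 of the 17738 genes of the count tables, 54 with an RpL symbol and 38 with an RpS symbol, and left out the mitochondrial ribosomal proteins, whose symbols begin with mRp. The rule uses no measured value, although it was chosen with earlier results of these data known. Some members carry a name ending in -like, are relatives of a ribosomal protein gene and need not be ribosome components. The small-subunit protein gene *sta* is missed by the rule and is given separately.

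The study followed when the circadian clock appears in the cell types of the developing fly intestine, and profiled dissociated midguts by droplet single-cell RNA sequencing with a 3′ kit. There were 3 libraries, 1 per stage, each made from pooled intestines: red-eye pupae, called early pupa here; adults on day 1, called immature adult; and adults on days 7 to 8, called mature adult. All were labelled female, of the genotype CantonS(per01 background), collected at ZT0, the start of the light phase. The study's methods name the strain as *CantonS* without the *per* allele, and name the second stage in one place as pharate, the stage just before eclosion. With 1 library per stage there was no replicate, so no difference could be tested against the spread between samples, and stage, dissection and library cannot be told apart. Intervals below are exact 95% intervals that cover counting error only.

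The cytoplasmic ribosome has a small and a large subunit, each built from ribosomal RNA and a set of proteins that are present, with few exceptions, in a single copy per ribosome. Their mRNAs are among the most abundant of any growing cell, and in flies the loss of a single copy of many of these genes gives the slow-growth Minute phenotype. In the adult midgut, intestinal stem cells and enteroblasts are the progenitors that renew the enterocytes, which secrete digestive enzymes and absorb nutrients, and the enteroendocrine cells, which secrete peptide hormones.

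After the study's filter (mitochondrial UMIs under 25%, a gene number between 200 and 4000, and between 1000 and 100000 UMIs, where a UMI marks a captured mRNA molecule) 2013 early pupal, 1197 immature adult and 1980 mature adult cells were kept, from 3816, 2625 and 6835 barcodes. They held 27026674, 21629263 and 47585248 UMIs, with medians of 9343, 14661 and 13474 UMIs per cell. Between 2 and 9 barcodes were shared by any pair of libraries, and at most 2 among kept cells. Cells were gated by marker lists, because no cell annotation was used: a cell had to show enough markers of a list and enough of its UMIs in it, above the level of barcodes with at most 1000 UMIs, taken as a rough measure of free RNA. These classes are called progenitor-like, enteroendocrine-like, enterocyte-like, pupal cell-like (the ferritin and metallothionein cells of the pupa) and visceral muscle-like. In the same order the early pupal library held 369, 126, 358, 475 and 79 cells, the immature adult 383, 238, 166, 30 and 15, and the mature adult 253, 106, 1171, 2 and 5, with 593, 358 and 440 cells in no class. The ungated cells had medians of 5529, 4139.5 and 2247.5 UMIs per cell in the 3 libraries, below those of all kept cells. Some gated classes were lower still, such as early pupal enterocyte-like cells with a median of 5130.5.

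In whole libraries the members took 25.1% of the UMIs of kept cells in early pupae, 36.8% in immature and 22.0% in mature adults, or 6778720, 7964176 and 10445760 UMIs. The interval of each share was narrower than its last printed digit. The immature adult library was the highest, and it was also the one with the largest part of its UMIs in progenitor-like cells. These cells held 52.4% of all UMIs and 68.4% of the members' UMIs there, against 22.1% and 31.9% in the early pupa and 11.9% and 24.0% in the mature adult. In the early pupa the cells in no class held more than they did, 29.0% of all UMIs and 33.2% of the members' UMIs. In the mature adult, enterocyte-like cells held 79.2% of all UMIs and 65.6% of the members' UMIs. The members' share in barcodes with at most 1000 UMIs was 13.6%, 12.3% and 19.3% in the 3 libraries; whether these barcodes hold free RNA or small or damaged cells was not tested.

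**Figure D1:**
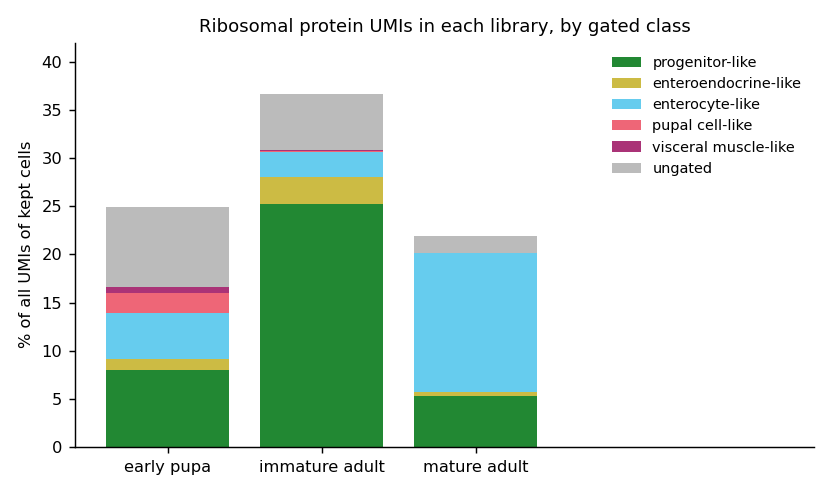
Ribosomal protein UMIs as a percent of all UMIs of kept cells (y axis) in the 3 libraries (x axis), stacked by the gated class of the cells. The immature adult bar is the tallest, near 36.8%, and most of it is progenitor-like; most of the mature adult bar is enterocyte-like. The few cells that fell into more than 1 class are left out of the bars.

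Within every library the progenitor-like cells gave the members more of their UMIs than any other class. The summed share was 36.3% in early pupal, 48.0% in immature adult and 44.4% in mature adult progenitor-like cells. Enteroendocrine-like cells were at 22.2% (interval 22.1 to 22.3), 16.2% (16.1 to 16.2) and 17.0% (17.0 to 17.1), and enterocyte-like cells at 23.8%, 26.2% and 18.2%. With all genes in the total, pupal cell-like cells were the lowest, at 10.7% in the early pupa and 15.4% (15.2 to 15.6) in the 30 such cells of the immature adult. Visceral muscle-like cells stood at 17.1% in the early pupa. Few single cells of the other classes reached the lower quartile of the progenitor-like cells, though the ranges met lower down. The 5th percentile of early pupal progenitor-like cells was 28.2%, below the upper quartile of 29.1% in enterocyte-like cells. Of 126 early pupal enteroendocrine-like cells, 4 lay above the lower quartile of the progenitor-like cells of their library, as did 28 of 358 enterocyte-like cells and none of the 475 pupal cell-like or 79 visceral muscle-like cells. In the immature adult no enteroendocrine-like or enterocyte-like cell did so, and in the mature adult 1 of 106 and 7 of 1171 did. Ungated cells are not in these counts. In the early pupa their upper quartile was 33.6%, beside a progenitor-like lower quartile of 33.3%.

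**Figure D2:**
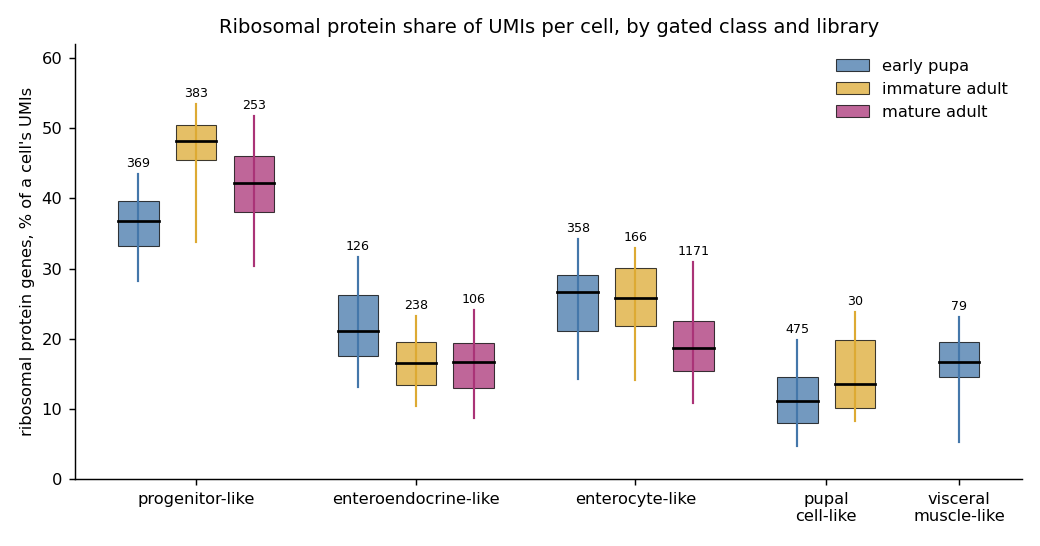
Ribosomal protein genes as a percent of a cell's UMIs (y axis) by gated class and library. Boxes span the quartiles over cells, the black line is the median, whiskers run from the 5th to the 95th percentile, and the number of cells stands above each; classes with fewer than 30 cells are not drawn. Progenitor-like medians of 36.8%, 48.1% and 42.3% stand above all other classes. Cells of 1 library are not replicates.

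A share also depends on the other mRNAs in the total. Mature enterocyte-like cells had a median of 33.1% of their UMIs in the enterocyte list, against 10.0% in early pupal and 4.39% in immature ones. The gate itself asked for at least 15.6% in mature and 3% in the other enterocyte-like cells, so this contrast is in part set by it. Enteroendocrine-like cells had 3.50%, 14.8% and 17.0% in their own list. With the 50 most abundant other genes left out of the total, the members' share in enterocyte-like cells was 35.7%, 33.1% and 39.5%, so that the mature adult became the highest rather than the lowest stage. In progenitor-like cells it was 43.4%, 55.4% and 52.0%, and in enteroendocrine-like cells 26.1%, 19.1% and 20.8%, each in the same order of stages as before. Early pupal pupal cell-like cells, with a median of 24.4% of UMIs in their own list, rose to 19.1% and stayed the lowest class. In the immature adult they rose to 22.8%, above enteroendocrine-like cells at 19.1% and visceral muscle-like cells at 20.5%, so they were no longer the lowest there. In members' UMIs per cell, progenitor-like cells held means of 5862, 14225 and 9898, and enteroendocrine-like cells 2399, 2639 and 2077. Mature enterocyte-like cells held 5856, against 3600 and 3362 at the earlier stages. Their total depth differed as well, with a mean of 32198 UMIs per cell against 15156 and 12823, and a median of 21886 against 5130.5 and 6039.5. Fewer mRNAs of one kind and more of another cannot be told apart in a share, and UMIs per cell also follow capture and sequencing depth. The small-subunit genes took a narrow range of the members' UMIs, from 37.8% in mature enterocyte-like to 41.1% in early pupal enteroendocrine-like cells over the 11 sums of a class and a library, the -like copies left out.

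From early pupa to immature adult, the members' summed level in progenitor-like cells was 1.32-fold higher (log2 ratio 0.41, interval 0.40 to 0.41), and nearly all of them moved together. Of the 83 members with at least 100 UMIs in both groups together, 82 were higher in the immature adult, by a median log2 ratio of 0.41 with quartiles of 0.34 and 0.48. All 5799 genes so tested had a median of -0.26. They include the members, whose share of these cells' UMIs went from 36.3% to 48.0%. Other genes then have lower CPM on average by arithmetic alone, so this background is not independent of the members. The backgrounds of the other comparisons below have the same limit. By the fold, 6 members were higher by at least 1.5-fold, against 12.1% of all genes, and 1 was lower, against 31.6% (the difference from other genes was not tested). The median depth of these cells was 15096 UMIs in early pupal and 28936 in immature adult libraries. Among cells with 5000 to 20000 UMIs only, a comparison added after the data were seen, the summed log2 ratio was 0.38.

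The 6 members above the fold were *RpLP0-like*, *RpL34a*, *RpLP2*, *RpL6*, *RpL22* and *RpL4*. *RpLP2*, an acidic protein of the ribosomal stalk that contacts the translation factors, stood at 6331 CPM (its count per 1000000 UMIs of the summed cells) in early pupal and 10394 CPM in immature adult progenitor-like cells, a log2 ratio of 0.72 (0.70 to 0.73). *RpLP0-like*, whose yeast relative Mrt4 acts in ribosome assembly, was at 40.1 and 86.3 CPM, a log2 ratio of 1.11 (0.90 to 1.32), the largest of any member. *RpL34a* was at 404 and 715 CPM, *RpL6* at 3229 and 5059, *RpL22* at 901 and 1386 and *RpL4* at 2282 and 3495, with log2 ratios from 0.62 to 0.82. These are all large-subunit genes or their relatives. The most abundant member, *RpL41*, which encodes the very short basic peptide of the large subunit, was at 16710 and 23364 CPM, close to the general shift with a log2 ratio of 0.48 (0.47 to 0.49). The other abundant members, *RpLP1*, *RpL27A*, *RpS29*, *RpS15*, *RpS26*, *RpL39*, *RpS27A* and *RpS25*, had log2 ratios from 0.20 for *RpS15* to 0.51 for *RpL27A*.

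*RpS15Ab* was the exception. Progenitor-like cells had 144 CPM of it in early pupae, 77.8 CPM in immature and 51.9 CPM in mature adults, from 859, 882 and 293 UMIs. It was the 1 member lower by the fold at the first step, with a log2 ratio of -0.89 (-1.03 to -0.75), while its paralog *RpS15Aa* went from 3679 to 4495 CPM. The early pupa was also the highest stage for *RpS15Ab* in enteroendocrine-like cells, at 62.4, 30.4 and 24.0 CPM, and in enterocyte-like cells, at 69.9, 58.3 and 24.4 CPM, although there the interval of the first log2 ratio (-0.57 to 0.03) spanned 0. The whole libraries gave the same order, with 78.5, 61.2 and 28.5 CPM.

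From immature to mature adult the members' level in progenitor-like cells differed little. The summed log2 ratio was -0.11 (-0.12 to -0.11), 60 of 83 members were lower and 23 higher, and none was past the fold in either direction, against 26.4% of all 5769 genes. The members' median log2 ratio was -0.12, beside 0.19 over all these genes. The extremes were *RpS15Ab* at -0.58 (-0.78 to -0.39) and *RpS14b* at 0.45 (0.40 to 0.50). *RpL34a* came back from 715 to 481 CPM, with a log2 ratio of -0.57 (-0.64 to -0.51). *RpL5*, which binds the 5S ribosomal RNA, went on upward from 1809 to 2509 and 3043 CPM over the 3 stages, as did *RpL24*, from 3408 to 4943 and 5369, and the ubiquitin fusion gene *RpL40*, from 3585 to 4736 and 5456. *RpS27A*, the other ubiquitin fusion, did not keep that order, with 5758, 7750 and 6120 CPM. In mature progenitor-like cells the members' share followed the cell's depth more than elsewhere (Spearman's rho 0.66 over 253 cells of 1 library, as a description), and among cells of 5000 to 20000 UMIs the summed log2 ratio was -0.26. These cells also carried a median of 0.487% of their UMIs in the enterocyte list, against 0.0261% and 0.0128% in early pupal and immature adult progenitor-like cells, and the part of this in the result was not tested.

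Across the whole interval from early pupa to mature adult, 77 of 83 members were higher in progenitor-like cells, and the summed log2 ratio was 0.29, or 0.12 among cells of 5000 to 20000 UMIs. The members' median log2 ratio was 0.29, beside -0.09 over all genes tested. *RpL24*, *RpL24-like*, *RpL40*, *RpL5* and *RpLP0-like*, 5 in all, were higher by the fold, against 18.8% of all 5455 genes, and *RpS15Ab* alone was lower, against 25.4%, with a log2 ratio of -1.47 (-1.67 to -1.28). *RpL38*, named after its values were seen, was 1 of the 6 members that were lower at the end, with 6893, 8064 and 5888 CPM.

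**Figure D3:**
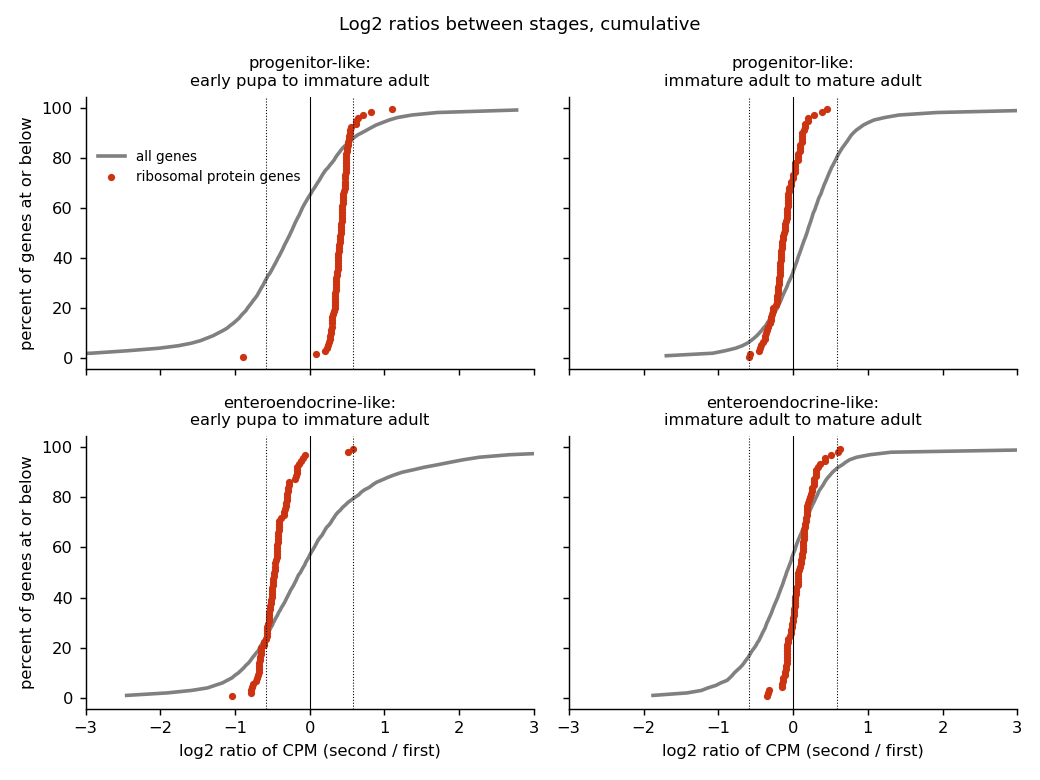
Cumulative distribution of log2 ratios of CPM between stages (x axis; the y axis is the percent of genes at or below a value) for the 83 ribosomal protein genes with at least 100 UMIs (red points) and for all genes tested (grey line, 1st to 99th percentile), in progenitor-like (top) and enteroendocrine-like cells (bottom). Dotted lines mark 1.5-fold. At the first step the red points form a steep column right of 0 in progenitor-like cells and left of 0 in enteroendocrine-like cells, with medians of 0.41 and -0.47.

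Enteroendocrine-like cells went the other way at the first step. Their summed members were lower in the immature adult than in the early pupa, with a log2 ratio of -0.46 (-0.46 to -0.45), and 81 of 83 members were lower, with a median of -0.47 against -0.13 over 4143 genes. By the fold, 19 members were lower, a share close to the 24.3% of all genes, and none was higher, against 20.4%. *RpS15Ab* was again the lowest, at -1.04 (-1.45 to -0.62), and the members above 0 were *RpL34a*, from 60.2 to 86.0 CPM, and *RpLP0-like*, from only 32 and 136 UMIs. From immature to mature adult the summed log2 ratio was 0.07 (0.07 to 0.08), a direction that turned under other settings. *RpL5*, from 1008 to 1561 CPM, and *RpL35*, from 1179 to 1786 CPM, were the 2 members higher by the fold, against 8.67% of all genes, and none was lower, against 16.9%.

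In enterocyte-like cells the direction of the members depended on the scaling. From early pupa to immature adult their median log2 ratio was 0.20 beside 0.17 over all genes, with 15 of 83 higher by the fold against 34.7% of all genes and 0 lower against 23.4%. From immature to mature adult 30 members were lower, against 61.9% of all genes, and the median was -0.50 beside -0.84. Leaving the 50 most abundant other genes out of the total, which moves every gene by the same amount, turned the summed log2 ratio of this step from -0.53 to 0.25, with 1 member lower and 13 higher by the fold, and that of the first step from 0.14 to -0.11. Among cells of 5000 to 20000 UMIs 10 members were lower at the second step. The shares of all genes past the fold under these other settings are not given here, so these counts lack a background. Within 1.25-fold of this gate's share, on either side, lay 89 immature and 189 mature adult cells, beside 166 and 1171 gated ones. With the full total, *RpL24-like* alone was higher by the fold at the second step, against 11.0% of all genes, from 144 to 258 CPM. *RpL38*, which in mice is needed for the translation of particular Hox mRNAs, was the lowest, from 5977 to 1937 CPM (log2 ratio -1.63, -1.65 to -1.60). It was lower than the other members as well, since its log2 ratio within the members' own UMIs was -1.10 (-1.13 to -1.07).

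Between classes of the same library, the members were lower in enteroendocrine-like than in progenitor-like cells. In the early pupa 71 of 83 members were lower in them by at least 1.5-fold, against 23.0% of all genes tested. In the immature adult all 83 were, against 23.9%, and in the mature adult again all 83, against 28.4%. The median log2 ratios were -0.72, -1.63 and -1.40, beside 0.10, 0.26 and 0.06 over all genes. *RpL41*, for example, was at 16710 CPM in progenitor-like and 9813 CPM in enteroendocrine-like cells of the early pupa, at 23364 and 8054 CPM in immature adults, and at 19449 and 7725 CPM in mature adults.

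In enterocyte-like cells most genes of any kind had lower CPM than in progenitor-like cells, and so did the members. Members lower by the fold numbered 55 against 55.8% of all genes in early pupae, 73 against 50.8% in immature and 81 against 67.6% in mature adults. Their median log2 ratios were -0.70, -0.92 and -1.27, beside -0.84, -0.62 and -1.46 over all genes, so that the members' median lay below that of all genes in the immature adult alone. Pupal cell-like cells had 82 of 83 members lower, against 64.0% of all genes, and early pupal visceral muscle-like cells 79 of 83, against 53.1%. The sum of the members was 0.295 times the progenitor-like level in pupal cell-like and 0.472 times in visceral muscle-like cells.

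Within these differences the members did not all keep step. The stalk genes *RpLP0*, *RpLP1* and *RpLP2*, whose products form the extension of the large subunit that recruits translation factors, were high in early pupal enterocyte-like cells. *RpLP2* stood there at 9885 CPM against 6331 CPM in progenitor-like cells, and was the 1 member higher by the fold, against 22.6% of all genes. *RpLP1* was at 7239 against 6331 CPM and *RpLP0* at 3294 against 2551 CPM. Among the members' own UMIs their log2 ratios were 1.25 (1.23 to 1.27), 0.80 (0.78 to 0.83) and 0.98 (0.95 to 1.01). *RpS2* (5154 against 4142 CPM, chosen after its values were seen) and *RpS10b* (4438 against 3629 CPM) were high there too. At the other end, *RpS19a* was at 1051 against 3593 CPM and *RpS15Aa* at 1081 against 3679 CPM, log2 ratios of -1.77 each. The stalk genes parted in the mature adult: enterocyte-like cells had 5014 CPM of *RpLP1* but 3454 CPM of *RpLP2*, with log2 ratios to progenitor-like cells of -0.53 and -1.43. *RpS19a* stayed the member furthest below the progenitor-like level in enterocyte-like cells of every library, with 1468 against 4628 CPM in immature and 927 against 5189 CPM in mature adults.

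In early pupal pupal cell-like cells *RpL24-like*, whose yeast relative Rlp24 is an assembly factor of the large subunit, was at 340 CPM against 225 CPM in progenitor-like cells (log2 ratio 0.60), the 1 member higher by the fold, against 22.3% of all genes. *RpL15*, chosen after its values were seen, was at 2325 against 4439 CPM, a smaller difference than that of the summed members. *RpS15Ab* was the lowest at 15.0 against 144 CPM.

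The rule also takes in pairs of paralogs, and each pair had a major and a minor copy in these libraries. Reads that match both copies of a pair are not counted by Cell Ranger, so the share of a copy also depends on how far their 3′ ends differ, and only its differences between cells can be compared.

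*RpL34a* set the enteroendocrine-like cells apart. It lies on chromosome 3R at 26058420 to 26059267 on the minus strand (Release 6 assembly, Ensembl annotation BDGP6.54), and *RpL34b* on the same arm at 9400237 to 9401226. Of the UMIs of the pair, *RpL34a* took 2.65% (interval 2.11 to 3.28, 82 of its UMIs) in early pupal, 5.08% (4.56 to 5.64) in immature adult and 5.87% (4.96 to 6.88) in mature adult enteroendocrine-like cells. In progenitor-like cells it took 10.8%, 14.0% and 10.2%, and in enterocyte-like cells 11.8%, 14.0% and 13.5%. Pupal cell-like cells were at 13.6% and visceral muscle-like cells at 17.7% (16.1 to 19.3) in the early pupa. No interval of the enteroendocrine-like cells overlapped one of another class. In CPM, *RpL34a* was at 60.2, 86.0 and 108 in enteroendocrine-like against 404, 715 and 481 in progenitor-like cells, while *RpL34b* was at 2213, 1608 and 1738 against 3333, 4403 and 4251. *RpL34a* was the member with the lowest log2 ratio between these classes in all 3 libraries, at -2.75 (-3.08 to -2.43), -3.06 (-3.22 to -2.90) and -2.15 (-2.41 to -1.91).

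*RpL24-like* took 6.19%, 6.18% and 7.33% of its UMIs and those of *RpL24* in progenitor-like cells, and 26.6% (25.6 to 27.7) in pupal cell-like cells, more than in any other of the 11 sums. In enterocyte-like cells it was at 7.52%, 6.35% and 13.1%. *RpLP0-like* took 1.55% (1.36 to 1.75), 2.45% (2.30 to 2.61) and 2.97% (2.71 to 3.25) beside *RpLP0* in progenitor-like cells of the 3 stages.

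*RpS15Ab* was a minor copy throughout, with 3.77% (3.53 to 4.02), 1.70% (1.59 to 1.82) and 1.45% (1.29 to 1.62) of the UMIs of the *RpS15A* pair in progenitor-like cells. Its share was highest in the early pupa in enterocyte-like cells too, at 6.07% (5.49 to 6.69), 2.96% (2.46 to 3.51) and 2.02% (1.89 to 2.15). Enteroendocrine-like cells had the same order, at 1.98% (1.58 to 2.44), 1.39% (1.15 to 1.66) and 1.11% (0.757 to 1.57), though there the intervals of neighbouring stages overlapped.

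*RpS14a* and *RpS14b* lie in tandem on the X chromosome, at 7933742 to 7934677 and 7934898 to 7935792, with 220 bases between them. *RpS14b* took between 16.1% (immature adult progenitor-like cells) and 25.8% (early pupal enterocyte-like cells) of the pair's UMIs over the 11 sums. The copies encode the same protein, so this split is uncertain as a measure of the 2 genes.

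**Figure D4:**
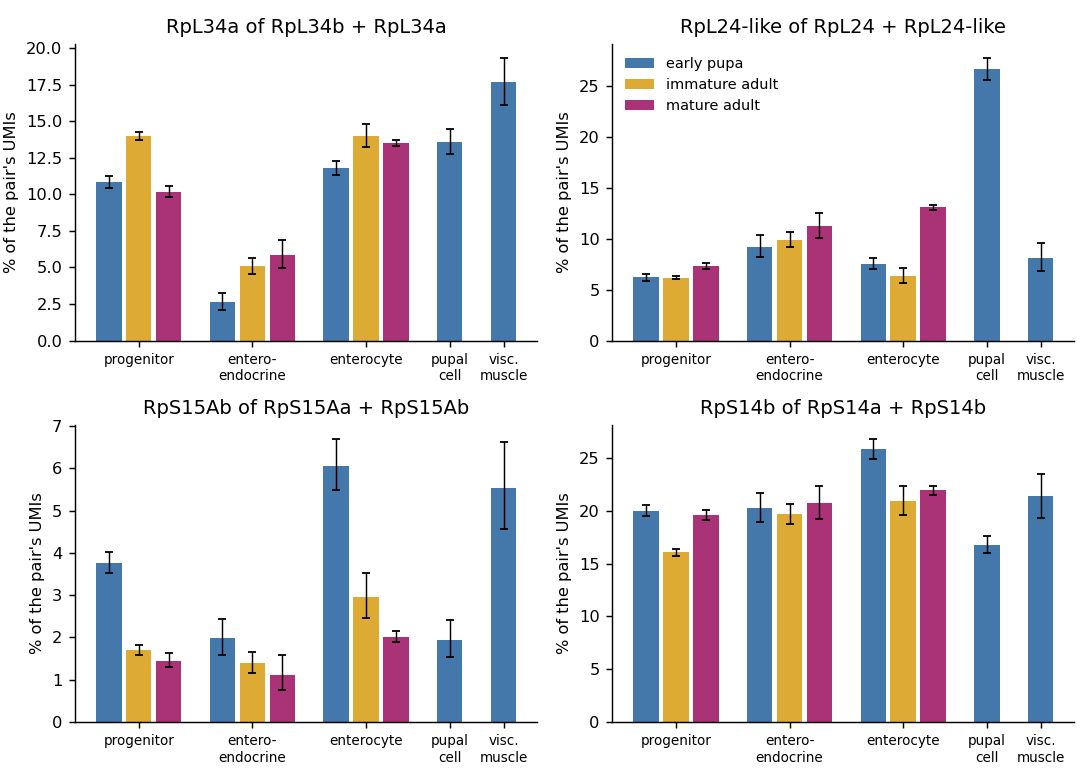
Minor paralog as a percent of its pair's UMIs (y axis, from 0) in each gated class, coloured by library, for 4 pairs; error bars are exact 95% intervals of counting error, with 1 library per stage. *RpL34a* is lowest in enteroendocrine-like cells of all 3 libraries, at 2.65%, 5.08% and 5.87%, and *RpL24-like* highest in pupal cell-like cells, at 26.6%.

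The remaining copies were at or near 0. *RpS5b* had 56 UMIs in all kept cells, beside 195616 of *RpS5a*, and *RpS19b* had 34, beside 187957 of *RpS19a*; in flies both are known from the germline. *RpL37b* had 5 UMIs, *RpL7-like* 4, *RpS10a* 2 and *RpS28-like* 1. *RpL10Aa*, *RpS28a* and *RpL22-like*, the last known from the testis, had 0 UMIs. In the early pupa a count of 0 allows *RpL22-like* up to 0.0211% of the UMIs of its pair. In all, 83 members had at least 1000 UMIs, 6 had between 1 and 99, and 3 had none.

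*RpL32* is shown in the study as a control housekeeping gene found in every cluster. It was at 5609, 7075 and 7240 CPM in progenitor-like cells over the 3 stages, at 3333, 2359 and 2810 CPM in enteroendocrine-like, and at 2572, 3323 and 3141 CPM in enterocyte-like cells. Early pupal pupal cell-like cells had 1432 CPM and visceral muscle-like cells 2762 CPM, so its highest sum was 5.06-fold above its lowest. As a part of the members' own UMIs it varied by only 1.59-fold. The coefficient of variation of its CPM over the 11 sums was 51.4%, close to the median of 50.8% over the 83 members, and that of its part of the members' UMIs was 12.8%, which ranked 33 of 83 from the steadiest. The steadiest were *RpL18* at 6.91% and *RpL7* at 7.06%, and the least steady *RpL24-like* at 69.9%, *RpS15Ab* at 62.4% and *RpL34a* at 48.1%. *RpS2* and *RpLP2* followed at 36.5% and 33.9%. With counts of 3′ tags no correction for length was needed to set members side by side, but capture may differ between them.

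**Figure D5:**
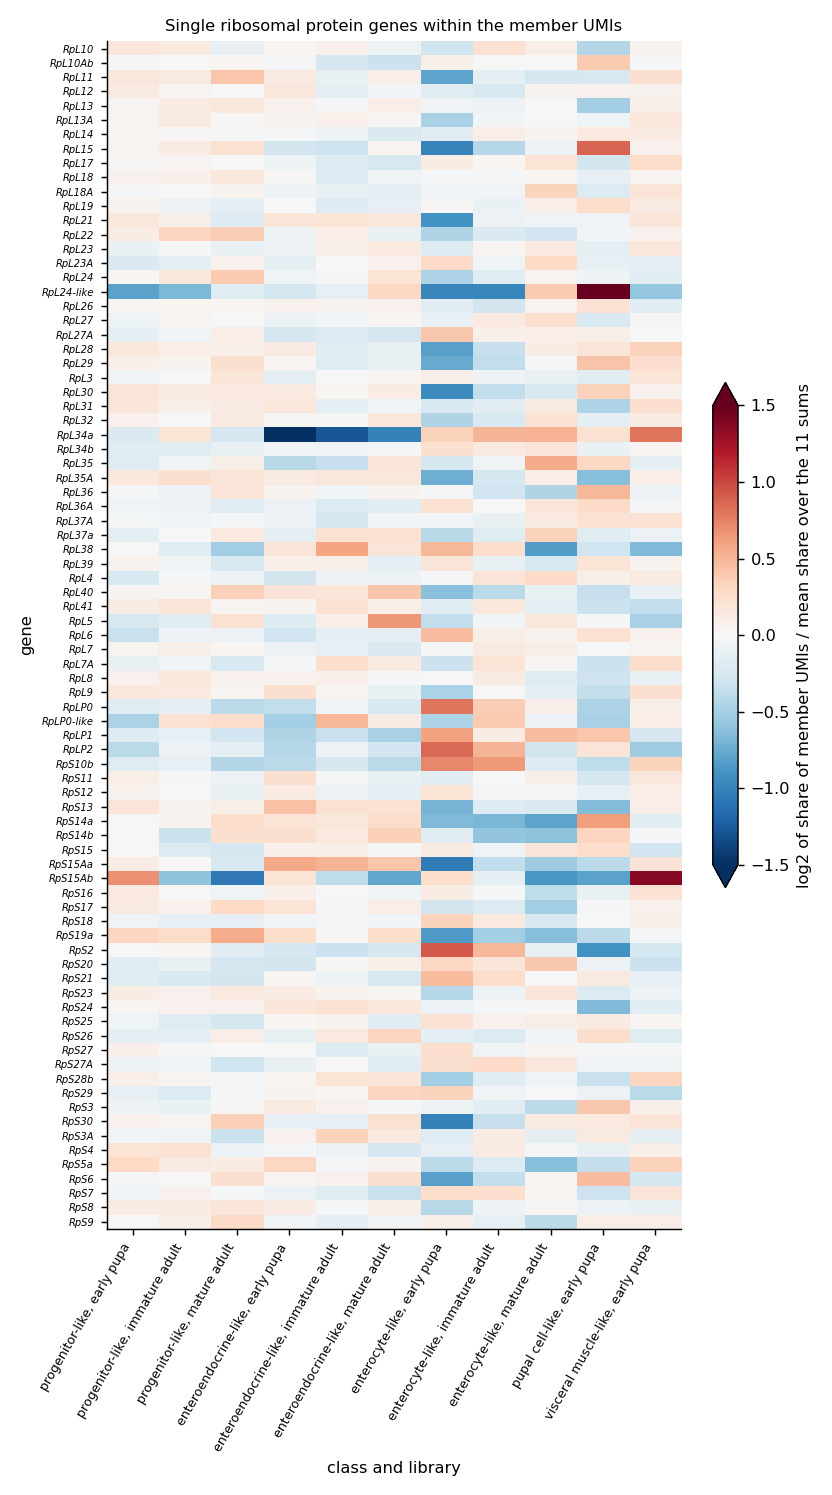
Each ribosomal protein gene with at least 1000 UMIs (rows) as a part of the members' UMIs in 11 sums of a gated class and a library (columns), as log2 of its part over its mean part in the 11 sums; colours are capped at 1.5 either way. Most rows are pale. *RpL34a* is low in the enteroendocrine-like columns, *RpS15Ab* is high in the early pupal progenitor-like and visceral muscle-like columns, and the stalk genes are high in early pupal enterocyte-like cells.

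Genes listed for the same pathway, in lists of fixed composition, were placed beside the members. Of the 30 genes on the ribosome biogenesis list, 18 were higher by the fold in progenitor-like cells from early pupa to immature adult. The median log2 ratio was 0.63, and 1 gene, *nst*, was lower. Whether each listed gene, *nst* included, acts in making ribosomes was not checked. The background is the same as for the members, 12.1% and 31.6%. From immature to mature adult 6 of the 30 were higher and none lower. Of all 5769 genes, 1156 were higher and 369 lower, together 26.4%, so the listed genes' share higher was close to that of all genes. *Myc*, the transcription factor that drives ribosome production and growth, was at 1021, 1731 and 2203 CPM in progenitor-like cells of the 3 stages and at 515, 309 and 307 CPM in enteroendocrine-like cells. *Thor*, the 4E-BP that holds back translation and is a target of FOXO, was at 449, 821 and 724 CPM in progenitor-like cells and at 4110 CPM in early pupal pupal cell-like cells. *Sesn*, a sestrin that restrains TORC1, was at 145, 16.9 and 13.3 CPM in progenitor-like cells and at 830 CPM in pupal cell-like cells. In all, of the 12 regulators found in the files, 3 were higher (*Myc*, *Thor* and *REPTOR*) and 1 lower (*Sesn*) by the fold in progenitor-like cells at the first step.

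Of 32 translation factors tested, 2 were higher at the first step (*eEF1beta* and *eIF3j*), against 12.1% of all genes. Lower was 1 (*eIF4B*), against 31.6%, and the median log2 ratio was 0.15. The most abundant, *eEF1alpha1*, which brings the aminoacyl-tRNA to the ribosome, was at 7006, 8689 and 9171 CPM in progenitor-like cells. Of 72 mitochondrial ribosomal protein genes tested 1 was higher and 2 were lower at that step, against the same shares of all genes, with a median of -0.11. Their summed share of UMIs was 0.270%, 0.254% and 0.238% in progenitor-like cells, and was largest in immature adult enterocyte-like cells, at 0.510% (0.501 to 0.520). It was 0.162% in mature enterocyte-like cells, where all 72 tested were lower than in the immature adult by the fold, as were 30 of the 83 cytoplasmic members and 61.9% of all genes. Of the ribosome components outside the rule, *sta* was at 4454, 6370 and 5748 CPM in progenitor-like cells and *Rack1* at 2720, 3630 and 3100 CPM, in the same order of stages as the summed members. The same list also held the polyubiquitin genes *Ubi-p5E* (418, 189 and 233 CPM) and *Ubi-p63E* (529, 315 and 307 CPM), which are not ribosome components. Both were lower by the fold at the first step, against 31.6% of all genes.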

How the data were processed

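The authors dissociated midguts, made 10x Genomics 3′ (v3.1) libraries and, per the labels and the study's methods, aligned and counted them with Cell Ranger 3.0.2 against *Drosophila* reference genome 6.25. The deposited matrices hold whole-number UMI counts per gene and barcode, not normalized. Counts were summed over kept cells per library and gated class and divided by all UMIs of that sum (share, or CPM). Cells with at least 5 markers and 0.2% (progenitor), 1% (enteroendocrine), 5% (pupal cell) or 2% (visceral muscle) of UMIs in the list, or 2 markers and 3% (enterocyte), were gated, with the share raised to that of barcodes of at most 1000 UMIs where higher (15.6% for mature enterocytes, 8.65% for early pupal cells). Cells in more than 1 class (13, 7 and 3) were left out, and 38, 42 and 22 cells lay within 1.25-fold of the progenitor share, 45, 89 and 189 of the enterocyte, 25, 2 and 3 of the enteroendocrine and 67, 13 and 2 of the pupal cell share. This rule was set after the counts were seen, so the classes are ranges rather than types. Progenitor-like cells had medians of at most 0.131% of UMIs in the pupal cell list, 0.0308% in the visceral muscle list and 0.0155% in the enteroendocrine list. Doublets were kept, with an alternative without the 5% of cells with the most UMIs. Genes with at least 100 UMIs in both groups together were tested, meaning compared with a fold of 1.5; with 1 library per stage there was no p-value. Ratios have exact intervals conditional on the summed counts and shares Clopper-Pearson intervals (95%, scipy 1.17.1, Python 3.11.15), checked on simulated counts. Limits for a count of 0 use 3 counts. Of the members 91 were found by identifier in the annotation; *RpS12* was not, and *RpL37a* and *RpL37b* are *RpL37-1* and *RpL37-2* there. *RpS27A*, *RpL7-like* and *RpS28-like* overlap another gene on their strand. Named members were the 10 with the most UMIs, *RpL32*, the 10 with the largest ratio between stages in progenitor-like cells, the paralogs, the stalk genes and the ubiquitin fusions; *RpL15*, *RpL18*, *RpL35*, *RpL38* and *RpS2* were named after their values were seen. Of the pathway lists *max* and *Larp* had no match by symbol. Members and lists were chosen with earlier results of these data known.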

Additional observations from a re-analysis of the deposited data

Results flagged for a closer look

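The members' summed level moved in opposite directions between stages in different classes, and with 1 library per stage this difference was not tested. From early pupa to immature adult the log2 ratio was 0.41 in progenitor-like and -0.46 in enteroendocrine-like cells. From immature to mature adult it was -0.11 in progenitor-like and 0.074 in enteroendocrine-like cells, the latter with a sign that other settings turned. From early pupa to mature adult it was 0.29 in progenitor-like cells (0.12 in those of 5000 to 20000 UMIs), -0.38 in enteroendocrine-like cells and -0.39 in enterocyte-like cells, where leaving out the 50 most abundant other genes gave 0.14.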

How the results depend on the processing

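No paired analysis was possible because each stage has 1 library. Shares are given as early pupa, immature adult and mature adult. The members' share of a library was 26.0%, 37.7% and 22.0% in cells with under 10% mitochondrial UMIs, 25.4%, 31.9% and 23.8% over all deposited barcodes, 23.6%, 28.5% and 20.9% as a median over cells, 26.9%, 39.0% and 23.2% without mitochondrial genes in the total, 34.0%, 43.1% and 40.8% without the 50 most abundant other genes, and 25.1%, 36.8% and 21.9% without the -like copies. The immature adult was the highest under each, and the early pupa lay below the mature adult only without the 50 genes. In progenitor-like cells the log2 ratio of the summed members from early pupa to immature adult was 0.37 as a mean over cells, 0.36 without mitochondrial genes, 0.35 without the 50 genes, 0.40 without the 5% of cells with the most UMIs, 0.38 in cells of 5000 to 20000 UMIs and 0.38 with a doubled gate share; the last 2 settings were chosen after the data were seen. From immature to mature adult it was -0.10 under 10% mitochondrial UMIs, -0.18, -0.090, -0.093, -0.11, -0.26 and -0.10 under the same 6 settings. Over the whole interval it lay between 0.12 (cells of 5000 to 20000 UMIs) and 0.30 (under 10% mitochondrial UMIs). Members higher by the fold at the first step numbered 1 at a fold of 2 and 10 in cells of 5000 to 20000 UMIs, and members lower 0 at a fold of 2 and 3 with no minimum of UMIs. At the second step 2 were lower with no minimum and 1 as a mean over cells. The shares of all genes past the fold under these settings are not given here, so the counts describe stability only. In enteroendocrine-like cells the ratio from immature to mature adult turned to -0.032 as a mean over cells and -0.051 in cells of 5000 to 20000 UMIs. In enterocyte-like cells leaving out the 50 genes turned it to -0.11, 0.25 and 0.14 for the first step, the second step and the whole interval. The cause was not tested. Members with few UMIs, *RpLP0-like* and *RpS15Ab* above all, have the widest intervals, and no value has a replicate.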
